A study of Homo sapiens with 10 samples.

Results

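Solute carriers (SLC) are membrane proteins that move amino acids, monocarboxylates, metals, ions, nucleotides and other small molecules across the plasma membrane and the membranes of organelles. The genes described here are the 81 genes, of 4727 listed symbols, whose single symbol in the array annotation starts with SLC and a digit, apart from the hexose transporters of subfamily SLC2A and SLC22A18. RNA came from SW620, a human colon cancer cell line, in 3 groups that all grew in the same culture medium with fetal bovine serum. The parental group (4 arrays) is SW620 itself. The liver group (3 arrays) and the lung group (3 arrays) are derivatives taken from metastases that SW620 cells had formed in those organs of balb/c nude mice, which lack a normal T cell compartment, and then expanded in culture. The arrays of a group are labelled as biological replicates, and nothing says whether they stem from different metastases or from repeat cultures. The tests therefore cover only the spread among these arrays, and all results concern a single cell line.

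SLC genes are grouped by subfamily number, and a subfamily usually shares a type of substrate. In cancer cells the monocarboxylate transporters of SLC16 carry lactate and pyruvate with protons, the CD98 heavy chain SLC3A2 brings exchangers of large amino acids and cystine to the cell surface, and SLC25 proteins carry metabolites through the inner mitochondrial membrane. Zinc is handled by 2 opposed subfamilies: SLC39 (ZIP) proteins bring zinc into the cytosol, and SLC30 (ZnT) proteins move it out of the cell or into vesicles.

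Each gene was measured as the mean of its rows in the deposited table of log2 values. The 81 genes had 1023 rows, from 1 to 32 each with a median of 12, and a row was taken to report a part of a gene. Chromosomes 1, 10, 11 and 12 hold 79 of the 81 members (28, 8, 27 and 16). Nearly all genes of the table belong to these chromosomes. SLC17A7 lies on chromosome 19, and SLC35E2 was not placed on a chromosome. Among members listed under older symbols, 1 is given here by its current symbol SLC9C2, SLC22A20 is the transcribed pseudogene SLC22A20P, SLC26A10 is SLC26A10P, and SLC22A18AS is an antisense RNA and no transporter. SLC35E2 matches more than 1 current gene. SLC7A11 and SLC12A2 are not analysed here. Levels of different genes come from different probes and were not compared with each other.

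Parental array 4 stood apart from the other parental arrays. Across the 4727 gene means, which are not independent replicates, parental arrays 1 to 3 correlated with each other at 0.996 to 0.998 (Pearson) and with parental array 4 at 0.989 to 0.991. Parental array 4 correlated with the lung arrays at 0.984 to 0.987, and parental arrays 1 to 3 did so at 0.979 to 0.985. By these values parental array 4 was nearer to its own group than to any lung array. Earlier results of these data had placed parental array 4 beside the 3 lung arrays on the first principal component, and these 4 arrays are called an array set here, with no batch given in the labels. Each comparison was therefore also fitted with the array set as a term. In that fit the lung arrays are compared with parental array 4 alone, and the liver arrays with parental arrays 1 to 3. Lung minus liver is then the difference between these changes, and no longer a direct comparison of the derivative arrays. No pair of arrays held identical values.

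A gene was called at an adjusted p under 0.05 (limma, Benjamini-Hochberg over all 4727 genes), and changes are differences of mean log2 values. In the liver derivatives 3 members rose and 4 fell, which is 3.70% and 4.94% of the members, while 4.29% of all genes were higher and 3.49% lower. In the lung derivatives 10 rose and 12 fell, or 12.3% and 14.8%, against 12.8% and 17.2% of all genes. Between the lung and liver derivatives 7 were higher in lung and 7 lower, 8.64% each, against 8.04% and 11.8% of all genes. These shares lie near those of the whole table. The median change of the members was -0.01 in liver, 0.03 in lung and 0.04 between them, beside 0.01, -0.01 and -0.02 over all genes. No member changed by as much as 1 log2 unit, which is a doubling, in any of the 3 comparisons. Of all 4727 genes 50, 55 and 13 did so in liver, in lung and between them. The members called in none of the comparisons were 52, and the same count over all genes was not made. For 69, 67 and 65 of the 81 members the 95% confidence interval of the change lay within 0.5 log2 of 0 in the liver, the lung and the lung minus liver comparison. The same held for 4128, 3537 and 3473 of all 4727 genes. The comparisons share arrays, the parental group standing in both of the first 2, so their calls are not independent of each other. In RNA from whole cultures, fewer cells expressing a gene and less RNA per cell cannot be told apart.

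**Figure D1:**
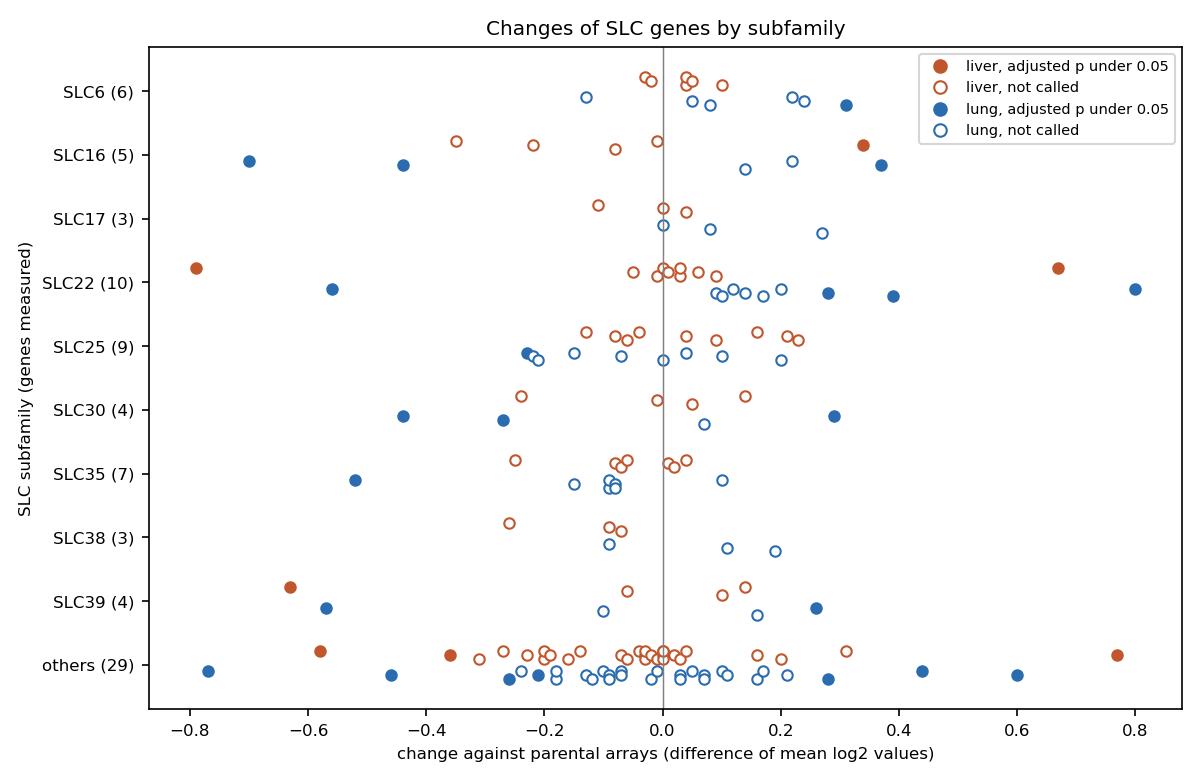
Change of each SLC gene in the liver (orange) and lung (blue) arrays against the parental arrays, in log2 units, by SLC subfamily; subfamilies with under 3 genes are pooled as others, the antisense RNA SLC22A18AS is left out, and filled points have an adjusted p under 0.05. Most points lie near 0, and the called points at the far left and right belong to SLC16, SLC22, SLC39 and, among the others, SLC44A3 and SLC4A8, with a range from -0.79 to 0.80.

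With the array set as a term, 8 members were called in liver (8.86% of all genes were), among them all 7 of the first fit, and 5 in lung (5.73% of all genes). Only SLC22A15, SLC44A3 and SLC22A20 of the 22 members called in lung were called in that fit too, and all 22 kept their sign. SLC25A22 (set change 0.62) and SLC35A3 (-0.47) were the others called in lung there, and in both parental array 4 stood apart from the other parental arrays. Between lung and liver 0 members were called by limma with the set as a term, against 0.0846% of all genes, and 10 members had an unadjusted p under 0.05 (9.65% of all genes did). For the lung change of that fit parental array 4 alone stands for the parental group, and its spread is assumed to be like that of the other groups. The other parental arrays stand for it in the liver change, and lung minus liver is the difference between these changes. Of the other 19 members called in lung, some kept a change of the same size, such as SLC22A9 (0.39 in both fits), SLC30A2 (0.29 and then 0.31), SLC22A25 (0.28 and 0.32), SLC15A3 (0.28 and 0.30) and SLC30A7 (-0.27 and -0.35). In others it was smaller, such as SLC4A8 (0.60 and 0.08), SLC16A9 (-0.70 and -0.31) and SLC5A12 (0.44 and 0.15).

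**Figure D2:**
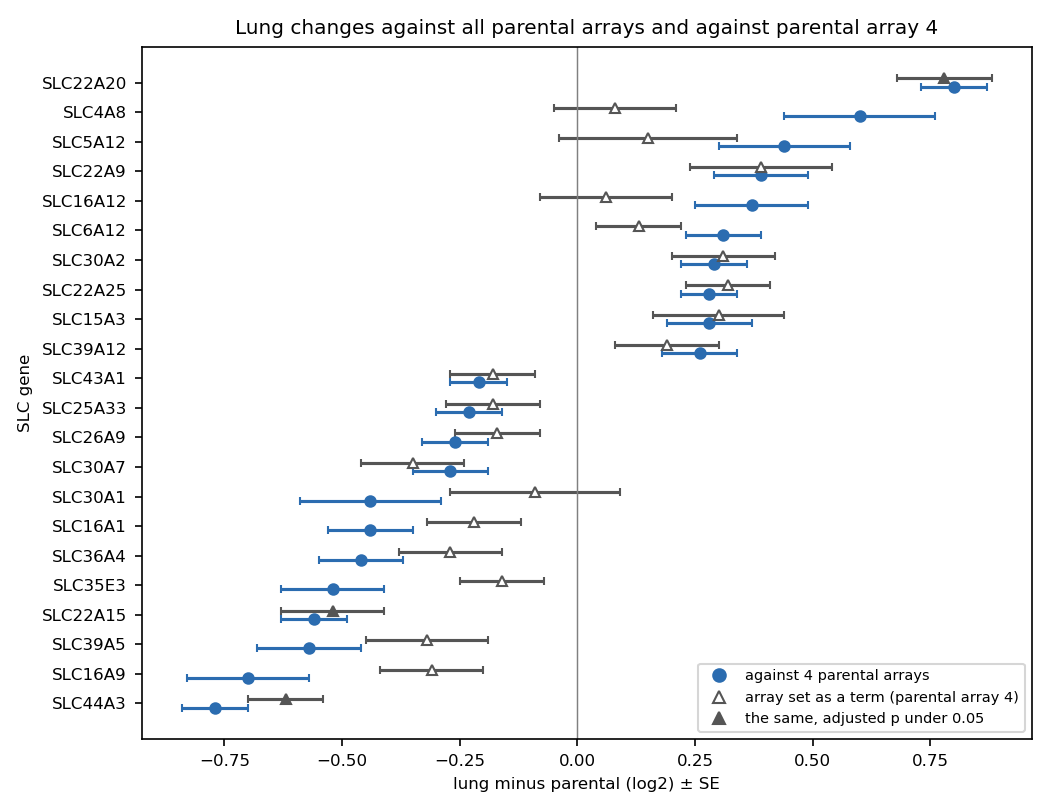
Change in the lung arrays of the 22 SLC genes called there, against all 4 parental arrays (blue circles) and in the fit that holds the array set as a term, which compares the lung arrays with parental array 4 alone (grey triangles, filled where the adjusted p was under 0.05); bars are standard errors. The filled triangles are those of SLC22A20 (0.78), SLC22A15 (-0.52) and SLC44A3 (-0.62); open triangles lie near the circle in genes such as SLC22A9 (0.39) and SLC43A1 (-0.18), and far from it in SLC4A8, at 0.08 against 0.60.

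The liver derivatives differed from parental cells in 7 members, of which SLC22A20 is a pseudogene. SLC22A15, which carries organic zwitterions, SLC39A5, the zinc importer ZIP5, SLC44A3, a choline transporter-like protein, and SLC43A1 (LAT3), a facilitator of large neutral amino acid transport, were lower. SLC4A8, a sodium-driven exchanger of chloride and bicarbonate, SLC22A20 and the monocarboxylate transporter SLC16A7 (MCT2) were higher. All except SLC16A7 were also called in the lung derivatives, in the same direction. These are 85.7% of the members called in liver and 27.3% of those called in lung. Both comparisons use the same parental arrays, and 30.1% of all genes were called in lung. The same overlap over all genes was not counted, so whether it is particular to SLC genes was not tested.

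SLC22A15 read 8.67, 8.58, 8.43 and 8.50 in the parental arrays, 7.82, 7.80 and 7.65 in the liver arrays and 7.91, 8.01 and 8.03 in the lung arrays. Both derivatives lay below every parental array, and the liver arrays were the lowest. The gene fell by 0.79 in liver (SE 0.07, 95% interval -0.95 to -0.62, adjusted p = 5.44e-05) and changed by -0.56 in lung (SE 0.07, adjusted p = 0.000563). SLC44A3 was at 9.81, 9.71, 9.67 and 9.54 in the parental arrays, 9.13, 9.11 and 9.06 in the liver arrays and 8.95, 8.89 and 8.90 in the lung arrays, and again no derivative array reached the parental range. Its change was -0.58 in liver (SE 0.07, adjusted p = 0.000259) and -0.77 in lung (SE 0.07, 95% interval -0.92 to -0.62, adjusted p = 4.97e-05). SLC39A5 had 7.95, 8.08, 7.95 and 7.66 in the parental arrays, 7.39, 7.26 and 7.19 in the liver arrays and 7.20, 7.52 and 7.31 in the lung arrays. Both derivatives lay below every parental array and overlapped each other, and parental array 4 lay closest to them. The changes were -0.63 in liver (SE 0.11, adjusted p = 0.00295) and -0.57 in lung (SE 0.11, adjusted p = 0.00401), and -0.32 in lung with the set as a term. SLC43A1 gave 10.55, 10.67, 10.67 and 10.59 in the parental arrays, 10.28, 10.30 and 10.20 in the liver arrays and 10.42, 10.35 and 10.47 in the lung arrays, with the lung arrays between the other groups. It changed by -0.36 in liver (SE 0.06, adjusted p = 0.0032) and by -0.21 in lung (SE 0.06, adjusted p = 0.0276).

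Of the members called in both derivatives against parental cells, SLC22A15, SLC39A5 and SLC43A1 have a RefSeq window whose 250 bases before the annotated start (GRCh38.p14) lie wholly outside the gene, and these are printed because the genes fell together. Of the 81 members 62 matched an entry of the promoter table. The windows were searched on both strands for the TATA box letters TATAAA, for the GC box core GGGCGG, for the AP-1 motif TGACTCA and for the E-box CACGTG. Matches are in capitals and do not overlap each other in these windows.
SLC22A15, chr1:115976263-115976512, plus strand: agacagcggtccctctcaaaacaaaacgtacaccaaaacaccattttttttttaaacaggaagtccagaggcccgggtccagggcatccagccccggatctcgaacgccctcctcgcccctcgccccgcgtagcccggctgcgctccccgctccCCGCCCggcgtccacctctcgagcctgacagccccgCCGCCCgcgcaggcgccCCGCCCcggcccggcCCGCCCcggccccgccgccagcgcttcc
SLC39A5, chr12:56229801-56230050, plus strand: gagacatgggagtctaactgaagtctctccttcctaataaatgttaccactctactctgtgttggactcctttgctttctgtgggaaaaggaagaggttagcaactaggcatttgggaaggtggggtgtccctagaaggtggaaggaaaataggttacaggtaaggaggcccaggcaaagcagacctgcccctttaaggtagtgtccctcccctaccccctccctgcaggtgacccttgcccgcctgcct
SLC43A1, chr11:57515703-57515952, minus strand: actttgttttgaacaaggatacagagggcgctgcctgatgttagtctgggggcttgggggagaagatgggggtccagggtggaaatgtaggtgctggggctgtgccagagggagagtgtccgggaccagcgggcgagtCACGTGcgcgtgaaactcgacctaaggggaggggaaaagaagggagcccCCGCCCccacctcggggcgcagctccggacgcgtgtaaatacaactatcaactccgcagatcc
The window of SLC22A15 held 4 matches of the GC box core, in the reverse orientation, and had a GC content of 71.2%. That of SLC43A1 held 1 match of the GC box core and 1 of the E-box at 60.8% GC, and in that of SLC39A5, at 52.4% GC, none of the letters searched was found. Over 35116 promoter windows of the same length, 42.6% held the GC box core, 10.7% the TATA letters, 6.34% the E-box and 4.20% the AP-1 motif, and the median GC content was 58%. No motif searched was common to the 3 windows, and a match describes the sequence only.

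SLC22A20 and SLC4A8 were the members that rose in both derivatives. SLC22A20 read 7.77, 7.80, 7.61 and 7.75 in the parental arrays, 8.45, 8.47 and 8.28 in the liver arrays and 8.52, 8.49 and 8.58 in the lung arrays. Every derivative array lay above every parental array, and parental array 4 lay among the other parental arrays. The change was 0.67 in liver (SE 0.07, 95% interval 0.51 to 0.82, adjusted p = 0.000122) and 0.80 in lung (SE 0.07, 95% interval 0.65 to 0.96, adjusted p = 4.72e-05). SLC4A8 read 6.89, 6.84, 6.90 and 7.57 in the parental arrays, 7.72, 7.86 and 7.86 in the liver arrays and 7.47, 7.65 and 7.84 in the lung arrays. Here parental array 4 stood at the level of the lung arrays and far above the other parental arrays. The rise was 0.77 in liver (SE 0.16, adjusted p = 0.0123) and 0.60 in lung (SE 0.16, adjusted p = 0.0185), and with the set as a term it was 0.94 in liver (adjusted p = 9.52e-05) and 0.08 in lung (adjusted p = 0.71). SLC4A8 overlaps a neighbouring gene and an antisense RNA in part, and no source used here says whether the values keep strands apart.

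**Figure D3:**
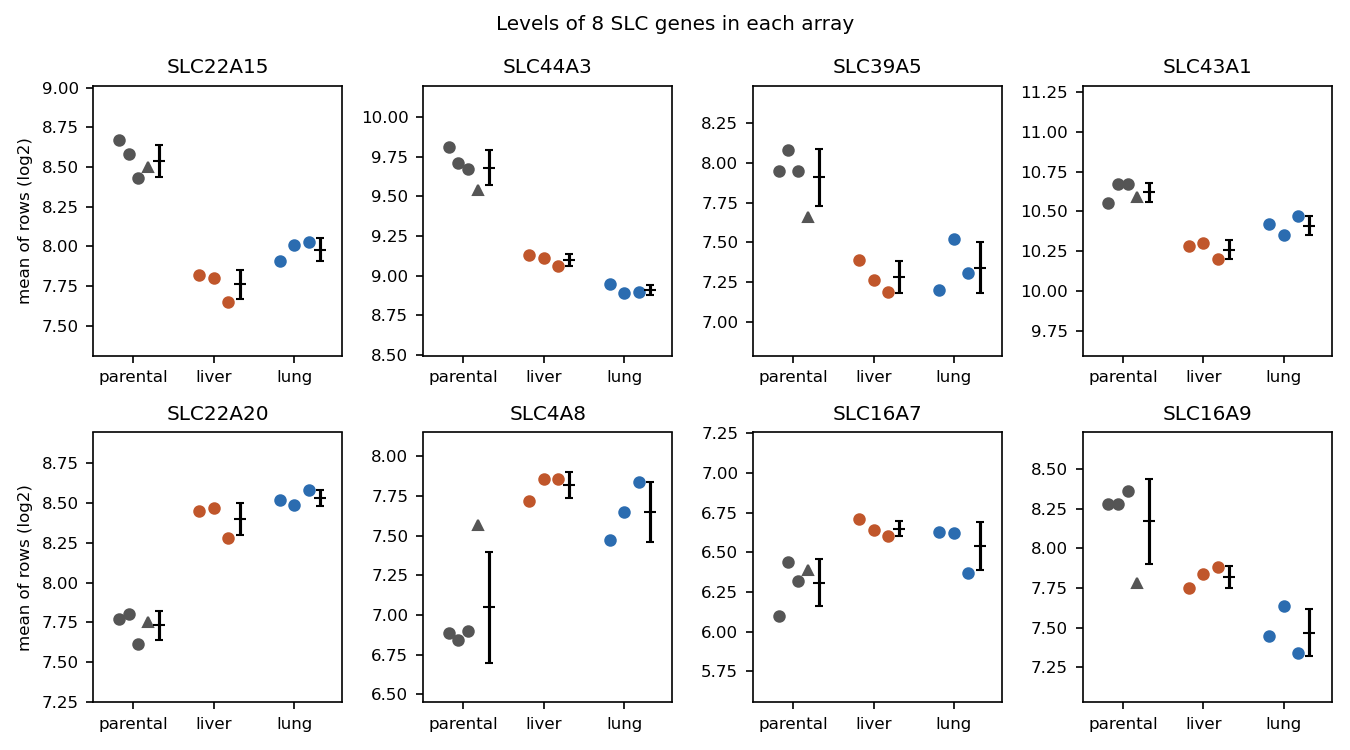
Mean log2 value of 8 SLC genes in each of the 10 arrays; points are arrays (the triangle is parental array 4), bars are the group mean and SD, and each panel spans the same number of log2 units from a different start. In SLC22A15, SLC44A3, SLC39A5, SLC43A1 and SLC22A20 the derivative arrays lie apart from all parental arrays, while in SLC4A8 and SLC16A9 parental array 4 (7.57 and 7.78) lies away from the other parental arrays.

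The rows of these 6 genes did not all change alike, and their positions along the gene are not given here. Of the 1023 member rows, 12 were called higher and 25 lower in liver, or 1.17% and 2.44%, where 1.15% of all rows with a listed gene were higher and 1.04% lower. The 4 members lower in both derivatives held 22 of these 25 rows, and SLC22A20 and SLC4A8 held 11 of the 12. In lung 51 member rows were called higher and 80 lower, or 4.99% and 7.82%, beside 5.15% and 7.99% of all rows. SLC22A15 had 9 of 17 rows lower in liver and 8 in lung, SLC44A3 5 and 12 of 17, SLC39A5 4 and 5 of 12, and SLC43A1 4 and 3 of 17. No row of these 4 genes was called higher in either derivative. In SLC43A1 no row was called lower in both derivatives, so its calls in liver and in lung came from different rows. In SLC22A20 4 of 10 rows were higher in liver and 6 in lung, and in SLC4A8 7 and 10 of 32. In liver the single-row changes ranged from -1.86 to 0.49 in SLC22A15 and from -0.17 to 1.91 in SLC4A8. In lung they ranged from -1.62 to 0.33 in SLC22A15 and from -1.27 to 1.55 in SLC4A8.

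**Figure D4:**
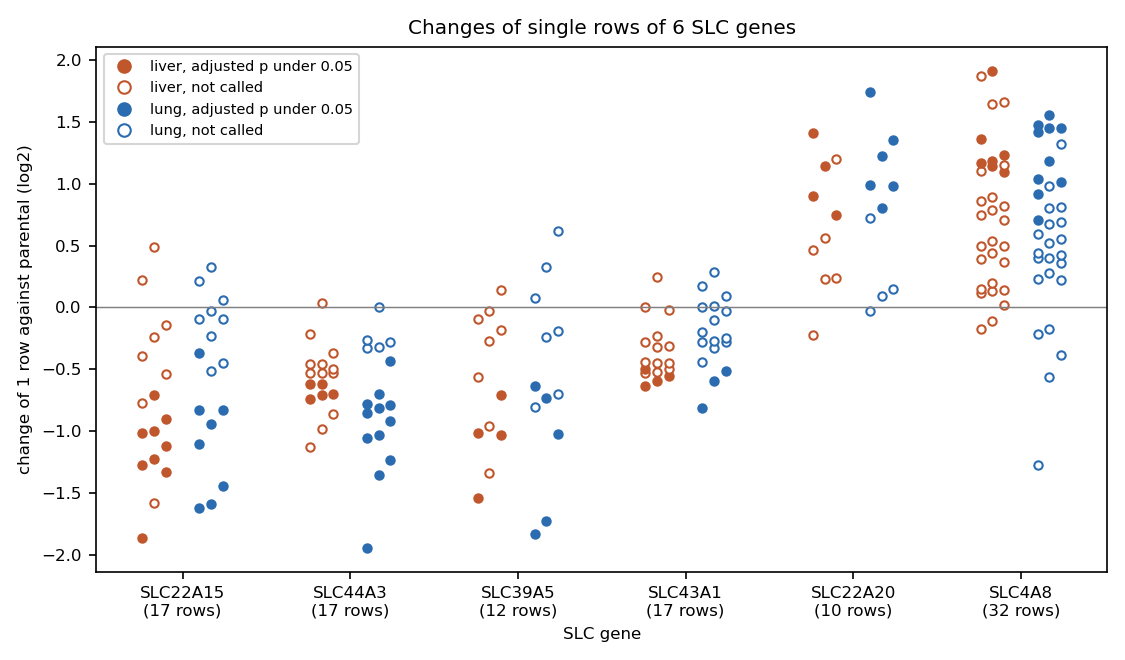
Change of every single row of 6 SLC genes against the parental arrays in liver (orange) and lung (blue), in log2 units, filled where the adjusted p over all rows was under 0.05. Rows of one gene differ widely, from -1.86 to 0.49 in SLC22A15 in liver, and all filled points of a gene lie on one side of 0.

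The value of a gene depends on how its rows are combined. By the brightest row of each gene, 16 members were called higher in lung and 4 lower, where 15.7% of all genes were higher and 6.69% lower, so the split between rises and falls moved with that choice. Between lung and liver it gave 19 members higher in lung and 2 lower, where 16.1% of all genes were higher and 9.03% lower. The brightest row of SLC22A15 changed by 0.22 in liver and -0.23 in lung, and that of SLC39A5 by -0.09 and 0.33, while the median of the rows of SLC22A15 changed by -1.17 in liver. Against the sign of their means, the brightest rows of SLC26A9 and SLC35E3 changed by 0.06 and 0.07 in lung, and the median row of SLC30A1 by 0.16. Between lung and liver the brightest rows of SLC26A9 (0.12), SLC35E3 (0.21) and SLC30A2 (-0.15) and the median row of SLC30A1 (0.02) also had the opposite sign. In that fit the 7 members called in liver by the mean of their rows lost their calls, and SLC26A10 was called there, with a change of -0.68.

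The lung derivatives showed more calls than the liver derivatives, both among SLC genes and over the whole table. Besides the 6 members shared with liver, the transporters lower in lung were the monocarboxylate transporters SLC16A9 and SLC16A1, the orphan SLC35E3, the amino acid transporter SLC36A4, the zinc exporters SLC30A1 and SLC30A7, the chloride transporter SLC26A9 and the mitochondrial carrier SLC25A33. Those higher were SLC5A12, SLC22A9, SLC16A12, SLC6A12, SLC30A2, SLC22A25, SLC15A3 and SLC39A12. Of the 10 rises in lung 6 lay in genes in the dimmest 25% of the table (a mean under 6.89 log2), against 1 of the 12 falls (60% and 8.33%), and over all genes called in lung the shares were 46% and 4.29%. In 9 of the 22 members (40.9%) parental array 4 lay nearer to the lung mean than to the mean of parental arrays 1 to 3, as it did in 34.2% of the 1422 genes called in lung.

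Set against each other, the lung and liver derivatives differed in 14 members. The zinc exporter SLC30A1, the amino acid transporters SLC36A4 and SLC3A2, SLC35E3, the mitochondrial carrier SLC25A44, SLC16A1 and SLC26A9 were lower in lung. SLC5A12, SLC17A8, SLC16A4, SLC30A2, SLC22A25, the heme transporter SLC48A1 and SLC45A3 were higher in lung. The differences ran from -0.58 to 0.48, and the groups overlapped in SLC5A12. How often the groups overlapped over all called genes was not counted. These calls depended on single arrays: 0 members were called by limma without liver array 2 or without liver array 3, and 26 without parental array 4. In limma without liver array 2 or 3, 20 and 21 members had an unadjusted p under 0.05, as did 28.3% and 31.8% of all genes. In lung against parental cells the count ranged from 11, without lung array 1, to 33, without parental array 4. The called shares of all genes in these fits are not given here, so whether such shifts are particular to SLC genes was not tested.

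Organic ion transporters of SLC22 carry drugs, urate and other organic anions and cations, mostly in kidney and liver. Of the 10 members of this subfamily, which include the pseudogene SLC22A20, 1 rose and 1 fell in liver, SLC22A20 and SLC22A15 (all genes 4.29% and 3.49%). In lung 3 rose and 1 fell (all genes 12.8% and 17.2%). The lung rises were the pseudogene SLC22A20 and the transporters SLC22A9 (OAT7) and SLC22A25. SLC22A9 read 6.41, 6.67, 6.87 and 6.65 in the parental arrays, 6.81, 6.64 and 6.76 in the liver arrays and 7.13, 7.01 and 6.97 in the lung arrays, and every lung array lay above all others. Its change in lung was 0.39 (SE 0.10, adjusted p = 0.015). SLC22A25 had 6.17, 6.25, 6.33 and 6.20 in the parental arrays, 6.26, 6.15 and 6.29 in the liver arrays and 6.53, 6.51 and 6.50 in the lung arrays, with close lung arrays above the remaining ones. It rose by 0.28 in lung against parental cells (SE 0.06, adjusted p = 0.00863) and by 0.28 against liver (SE 0.07, adjusted p = 0.0207), and the set term left it at 0.32 (adjusted p = 0.0642). SLC22A6, SLC22A8, SLC22A10, SLC22A11, SLC22A12 and SLC22A24 were not called, with lung changes from 0.09 to 0.20. By sign, 9 of the 10 changes in lung were above 0, as were 49% over all genes. Their median was 0.16, where the median of all genes was -0.01. Other subfamilies leaned as well, such as SLC35, with 6 of 7 changes in lung below 0. Over all genes called in lung, 46% of the rises and 4.29% of the falls lay in the dimmest 25% of the table. Genes of like level were not compared, so a shift particular to SLC22 was not tested. SLC22A9, SLC22A10, SLC22A24 and SLC22A25 are related neighbours on chromosome 11, and how far the probes tell them apart was not tested.

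Among the 5 monocarboxylate transporters of SLC16, 1 rose in liver, and 1 rose and 2 fell in lung, where 12.8% of all genes were higher and 17.2% lower. SLC16A1 (MCT1), which exchanges lactate and pyruvate with the medium, read 10.35, 10.39, 10.30 and 10.06 in the parental arrays, 10.15, 10.15 and 10.29 in the liver arrays and 9.81, 9.96 and 9.74 in the lung arrays. The lung arrays were the lowest, and parental array 4 was the lowest of its group. SLC16A1 fell by 0.44 in lung (SE 0.09, adjusted p = 0.00599). Its change was -0.36 from liver to lung (SE 0.10, adjusted p = 0.0276) and -0.08 in liver (95% interval -0.28 to 0.12). With the set as a term the change was -0.22 in lung (adjusted p = 0.221) and -0.07 from liver to lung (adjusted p = 0.873), and its brightest row changed by -0.14 in lung. SLC16A9 (MCT9), whose substrates include carnitine, had 8.28, 8.28, 8.36 and 7.78 in the parental arrays, 7.75, 7.84 and 7.88 in the liver arrays and 7.45, 7.64 and 7.34 in the lung arrays. Parental array 4 lay with the liver arrays, below the other parental arrays. The change in lung was -0.70 (SE 0.13, adjusted p = 0.00367), and -0.31 with the set as a term (adjusted p = 0.139). In liver it was -0.35 (adjusted p = 0.152) and, with the set as a term, -0.48 (adjusted p = 0.00314).

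SLC16A7, a transporter of lactate and pyruvate with high affinity, read 6.10, 6.44, 6.32 and 6.39 in the parental arrays, 6.71, 6.64 and 6.60 in the liver arrays and 6.63, 6.62 and 6.37 in the lung arrays. The liver arrays lay above all parental arrays and the lung arrays overlapped both. Its rise in liver was 0.34 (SE 0.09, adjusted p = 0.0479) and kept its call in 4 of 18 alternatives, and the lung change was 0.22 (adjusted p = 0.0854). SLC16A12, a creatine transporter, had 6.45, 6.55, 6.80 and 7.01 in the parental arrays, 6.80, 6.63 and 6.64 in the liver arrays and 7.20, 7.09 and 6.93 in the lung arrays, with parental array 4 inside the lung range. It rose by 0.37 in lung (SE 0.12, adjusted p = 0.0443) and by 0.06 with the set as a term. SLC16A4 stood at 6.94, 6.94, 6.83 and 7.29 in the parental arrays, 6.67, 6.80 and 6.86 in the liver arrays and 7.05, 7.21 and 7.15 in the lung arrays, and parental array 4 was its highest value. It was called between lung and liver alone, at 0.36 (SE 0.11, adjusted p = 0.0411), with -0.02 under the set term. SLC5A12, a sodium-coupled lactate transporter, read 6.60, 6.53, 6.73 and 7.01 in the parental arrays, 6.66, 6.53 and 6.84 in the liver arrays and 7.33, 6.83 and 7.31 in the lung arrays, with overlap between all groups. The rise in lung was 0.44 against parental cells (SE 0.14, adjusted p = 0.0392) and 0.48 against liver (SE 0.15, adjusted p = 0.0466), with 0.15 and 0.10 under the set term, neither called. SLC5A9, the other SLC5 gene, changed by 0.07 in lung.

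Zinc transporters moved in both directions. Of the 4 members of SLC30, 2 fell and 1 rose in lung (all genes 17.2% and 12.8%), while in liver their changes lay between -0.24 and 0.14 without a call. SLC30A1 (ZnT1), which exports zinc through the plasma membrane, read 8.86, 8.82, 8.81 and 8.37 in the parental arrays, 8.60, 8.98 and 8.99 in the liver arrays and 8.17, 8.55 and 8.11 in the lung arrays. The lung arrays overlapped parental array 4, which was well below the other parental arrays. SLC30A1 fell by 0.44 in lung (SE 0.15, adjusted p = 0.0471), and the change was -0.09 with the set as a term. Lung minus liver was -0.58 (SE 0.16, adjusted p = 0.0304). It has 3 rows, 1 of which was called lower in lung. SLC30A7 (ZnT7), which loads zinc into the Golgi, had 9.53, 9.50, 9.29 and 9.55 in the parental arrays, 9.14, 9.24 and 9.28 in the liver arrays and 9.09, 9.25 and 9.24 in the lung arrays. Its liver and lung arrays both lay below all parental arrays. The change was -0.27 in lung (SE 0.08, adjusted p = 0.024) and -0.24 in liver, which was not called. SLC30A2 (ZnT2), a vesicular transporter, read 6.71, 6.93, 6.63 and 6.74 in the parental arrays, 6.69, 6.74 and 6.79 in the liver arrays and 7.09, 7.03 and 7.02 in the lung arrays, and the lung arrays lay above the others. It rose by 0.29 in lung (SE 0.07, adjusted p = 0.014) and by 0.31 against liver (SE 0.08, adjusted p = 0.0245). SLC30A10 was not called. SLC30A7 shares part of its locus with DPH5.

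Of the 4 importers of SLC39, SLC39A5 fell in both derivatives and SLC39A12 rose in lung (all genes in lung 17.2% lower and 12.8% higher, in liver 3.49% lower). SLC39A12 (ZIP12) had 5.58, 5.58, 5.68 and 5.71 in the parental arrays, 5.81, 5.69 and 5.84 in the liver arrays and 6.04, 5.92 and 5.75 in the lung arrays, and only 2 of the 3 lung arrays were above every liver array. The rise against parental cells was 0.26 (SE 0.08, adjusted p = 0.0265). SLC39A1 (ZIP1), a widely expressed zinc importer, read 9.56, 9.53, 9.54 and 9.21 in the parental arrays, 9.52, 9.61 and 9.53 in the liver arrays and 9.31, 9.33 and 9.44 in the lung arrays. Parental array 4 was below every other array, and the changes of 0.10 in liver and -0.10 in lung were not called. SLC39A13 (ZIP13) changed by -0.06 in liver and 0.16 in lung. SLC11A2 (DMT1), the proton-coupled importer of ferrous iron, had 10.12, 10.07, 9.99 and 10.17 in the parental arrays, 9.86, 9.94 and 9.86 in the liver arrays and 9.98, 10.03 and 9.88 in the lung arrays. Its changes were -0.20 in liver (adjusted p = 0.103) and -0.12 in lung (adjusted p = 0.174), although the liver arrays lay below every parental array. SLC48A1 (HRG1), a heme transporter, read 9.24, 9.36, 9.26 and 9.38 in the parental arrays, 9.25, 9.15 and 8.96 in the liver arrays and 9.46, 9.38 and 9.38 in the lung arrays. It was higher in lung than in liver by 0.28 (SE 0.08, adjusted p = 0.0332), and against the parental arrays the changes of 0.10 in lung and -0.19 in liver were not called. SLC48A1 shares part of its locus with RAPGEF3. The magnesium transporter SLC41A1 changed by -0.24 in lung, which was not called.

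Of the amino acid and peptide transporters in SLC1, SLC3, SLC6, SLC15, SLC36, SLC38 and SLC43, those called in lung were SLC36A4, SLC6A12, SLC15A3 and SLC43A1. Over all genes 30.1% were called in lung. SLC36A4 (PAT4), which transports tryptophan and proline, read 9.58, 9.49, 9.33 and 9.22 in the parental arrays, 9.31, 9.46 and 9.45 in the liver arrays and 8.98, 8.88 and 8.98 in the lung arrays, and the lung arrays lay below all others. It fell by 0.46 in lung (SE 0.09, adjusted p = 0.00426), with a change of -0.46 from liver to lung (SE 0.09, adjusted p = 0.0141) and of -0.27 in lung with the set as a term (adjusted p = 0.162). SLC3A2 had 10.77, 10.73, 10.69 and 10.24 in the parental arrays, 10.93, 10.90 and 10.91 in the liver arrays and 10.45, 10.66 and 10.45 in the lung arrays. The liver arrays were close together at the top, and parental array 4 was the lowest of all. Lung minus liver was -0.39 for SLC3A2 (SE 0.13, adjusted p = 0.0494), and 0.10 with the set as a term, which turned its sign. The changes of 0.31 in liver (adjusted p = 0.178) and -0.09 in lung were not called. SLC6A12, a betaine and GABA transporter, read 7.31, 7.32, 7.30 and 7.55 in the parental arrays, 7.51, 7.43 and 7.48 in the liver arrays and 7.80, 7.56 and 7.69 in the lung arrays, with parental array 4 above the other parental arrays. It rose by 0.31 in lung (SE 0.08, adjusted p = 0.0158) and by 0.13 with the set as a term. The other 5 genes of SLC6 were not called in any comparison, and among them SLC6A9 (GlyT1), a glycine transporter, had 9.08, 9.23, 9.16 and 9.27 in the parental arrays, 9.29, 9.21 and 9.17 in the liver arrays and 9.31, 9.27 and 9.22 in the lung arrays. SLC15A3, a lysosomal transporter of histidine and peptides, read 7.19, 7.31, 7.48 and 7.30 in the parental arrays, 7.39, 7.35 and 7.22 in the liver arrays and 7.41, 7.66 and 7.72 in the lung arrays, and rose by 0.28 in lung (SE 0.09, adjusted p = 0.0431) with overlapping groups. SLC15A5, the second SLC15 gene, was not called.

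The sodium-coupled transporters of neutral amino acids in SLC38 were not called. SLC38A1 (SNAT1), which takes up glutamine, read 11.63, 11.64, 11.63 and 11.72 in the parental arrays, 11.50, 11.56 and 11.65 in the liver arrays and 11.57, 11.55 and 11.59 in the lung arrays. SLC38A2 (SNAT2), induced when amino acids are scarce, read 12.05, 11.98, 11.93 and 12.25 in the parental arrays, 11.94, 11.98 and 12.02 in the liver arrays and 12.19, 12.10 and 12.19 in the lung arrays. The lung arrays of SLC38A1 lay just below the parental arrays, and those of SLC38A2 above the liver arrays, while the other pairs of groups overlapped. The changes of SLC38A1 (-0.09 in liver, 95% interval -0.21 to 0.04, and -0.09 in lung) and of SLC38A2 (-0.07 and 0.11) were not called. SLC38A4 was 0.45 higher in lung than in liver, without a call (adjusted p = 0.0922). SLC43A3, a relative of SLC43A1 that carries purine bases, had 11.69, 11.72, 11.70 and 11.58 in the parental arrays, 11.71, 11.71 and 11.68 in the liver arrays and 11.71, 11.75 and 11.63 in the lung arrays, and its change was 0.03 in each derivative (95% interval -0.10 to 0.16 in both). The difference in response between SLC43A1 and SLC43A3 was not tested. SLC1A2 (EAAT2), a glutamate importer, read 6.19, 6.03, 6.32 and 6.23 in the parental arrays, 6.28, 6.33 and 6.58 in the liver arrays and 6.20, 6.23 and 6.67 in the lung arrays, and neither it nor SLC1A7 was called.

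Of the 9 mitochondrial carriers of SLC25, 1 fell in lung (17.2% of all genes did), and in liver their changes ran from -0.13 to 0.23 without a call. SLC25A33, a carrier of pyrimidine nucleotides, had 9.90, 9.81, 9.77 and 9.76 in the parental arrays, 9.75, 9.76 and 9.69 in the liver arrays and 9.47, 9.68 and 9.60 in the lung arrays. The lung arrays lay below the other arrays, with a change of -0.23 (SE 0.07, adjusted p = 0.0282). SLC25A44, a carrier of branched-chain amino acids, read 8.65, 8.93, 8.78 and 8.52 in the parental arrays, 8.86, 8.72 and 9.04 in the liver arrays and 8.39, 8.49 and 8.61 in the lung arrays. Lung minus liver was -0.38 (SE 0.11, adjusted p = 0.04) and -0.11 with the set as a term, and neither derivative was called against parental cells. SLC25A3, the mitochondrial phosphate carrier, stood at 11.18, 11.21, 11.15 and 10.92 in the parental arrays, 11.04, 11.09 and 11.09 in the liver arrays and 11.12, 10.99 and 11.03 in the lung arrays. Its changes were -0.04 in liver and -0.07 in lung, with all groups overlapping. SLC25A22, a glutamate carrier, had 9.80, 9.79, 9.92 and 9.14 in the parental arrays, 9.95, 9.91 and 9.81 in the liver arrays and 9.82, 9.76 and 9.69 in the lung arrays. Parental array 4 was far below every other array, and the lung change was 0.62 with the set as a term (adjusted p = 0.00435) and 0.10 without it. SLC25A16, SLC25A24, SLC25A28, SLC25A34 and SLC25A45 were not called.

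Subfamily SLC35 includes transporters of nucleotide sugars, which feed glycosylation in the Golgi and endoplasmic reticulum. Of the 7 measured SLC35 genes, the orphan SLC35E3 fell in lung (17.2% of all genes did). It read 9.64, 9.56, 9.55 and 9.11 in the parental arrays, 9.32, 9.45 and 9.38 in the liver arrays and 8.87, 8.93 and 9.04 in the lung arrays, with the lung arrays lowest and parental array 4 between them and the other arrays. The change was -0.52 against parental cells (SE 0.11, adjusted p = 0.00816), -0.44 against liver (SE 0.12, adjusted p = 0.031), and -0.16 and 0.04 with the set as a term. SLC35A3, which carries UDP-N-acetylglucosamine, had 8.63, 8.70, 8.66 and 9.17 in the parental arrays, 8.40, 8.68 and 8.54 in the liver arrays and 8.77, 8.63 and 8.72 in the lung arrays. Parental array 4 was the highest, and the lung change of -0.08 became -0.47 with the set as a term (adjusted p = 0.0355). SLC35C1, SLC35D1, SLC35E2, SLC35F2 and SLC35F3 were not called, with lung changes from -0.15 to 0.10.

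Anion, vesicular and remaining carriers held 3 further called members. SLC26A9, a chloride transporter of epithelia, read 6.61, 6.60, 6.77 and 6.54 in the parental arrays, 6.70, 6.70 and 6.61 in the liver arrays and 6.35, 6.44 and 6.34 in the lung arrays. The lung arrays were the lowest, and it changed by -0.26 against parental cells (SE 0.07, adjusted p = 0.0179) and -0.29 against liver (SE 0.07, adjusted p = 0.0227), or -0.17 and -0.18 with the set as a term. SLC17A8 (VGLUT3), a vesicular glutamate transporter, had 6.31, 6.25, 6.47 and 6.70 in the parental arrays, 6.34, 6.22 and 6.39 in the liver arrays and 6.79, 6.61 and 6.68 in the lung arrays, with parental array 4 in the lung range. It differed between lung and liver alone, by 0.38 (SE 0.11, adjusted p = 0.0352), and by 0.02 with the set as a term (adjusted p = 0.967). SLC45A3 (prostein) read 8.74, 8.79, 8.62 and 8.82 in the parental arrays, 8.72, 8.57 and 8.53 in the liver arrays and 8.75, 8.88 and 8.93 in the lung arrays, with the parental arrays overlapping both derivatives. Lung minus liver was 0.25 (SE 0.08, adjusted p = 0.0491), and 0.14 with the set as a term. SLC17A7 (VGLUT1), on chromosome 19, rests on 1 row, which read from 13.10 to 13.28 in the 10 arrays. SLC17A6, SLC18A2, SLC18A3 and the pseudogene SLC26A10 were not called. Antisense RNAs lie at SLC6A12, SLC16A12, SLC26A9 and SLC39A12, and their share in these values was not tested.

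Further transporters of vitamins, choline, fatty acids and nucleosides were not called in any comparison. SLC19A2, a thiamine importer, read 8.36, 8.58, 8.20 and 8.50 in the parental arrays, 8.17, 8.12 and 8.03 in the liver arrays and 8.38, 8.23 and 8.23 in the lung arrays. Its change was -0.31 in liver (95% interval -0.51 to -0.11, adjusted p = 0.0695), with the liver arrays below every parental array, and -0.13 in lung. SLC44A5, a relative of SLC44A3, had 6.98, 6.89, 6.80 and 7.22 in the parental arrays, 6.89, 6.77 and 6.78 in the liver arrays and 7.03, 6.84 and 6.76 in the lung arrays, and changed by -0.16 in liver and -0.09 in lung with overlapping groups. SLC27A3, an acyl-CoA synthetase of the fatty acid transport family, read 9.09, 9.16, 9.01 and 8.89 in the parental arrays, 9.15, 9.04 and 8.93 in the liver arrays and 8.93, 8.98 and 9.01 in the lung arrays. Its changes were 0.00 in liver (95% interval -0.17 to 0.17) and -0.07 in lung. The nucleoside transporter SLC29A2 (ENT2) had 9.40, 9.54, 9.53 and 9.49 in the parental arrays, 9.56, 9.48 and 9.38 in the liver arrays and 9.51, 9.60 and 9.52 in the lung arrays, with changes of -0.02 and 0.05, while SLC29A3 of the lysosome changed by -0.27 in liver (adjusted p = 0.0706). The sugar phosphate exchangers SLC37A2 and SLC37A4, SLC45A1, SLC9C2 and the antisense RNA SLC22A18AS completed the uncalled members. Over the 52 uncalled members the changes of all 3 comparisons lay between -0.31 and 0.45.

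Other membrane transport genes, a list of ATP-binding cassette transporters, ion pumps, aquaporins and organic anion transporting polypeptides, were read for comparison. Of 31 measured, 1 rose and 2 fell in liver, 4 rose and 5 fell in lung, and 4 were higher and 1 lower in lung than in liver, with median changes of -0.01, 0.06 and 0.09. The called share was 9.68% in liver, 29% in lung and 16.1% between them, beside 7.79%, 30.1% and 19.9% of all genes. The falls of ABCC2 and SLCO1B3 were larger than any among the SLC genes. ABCC2, an exporter of conjugated organic anions, had means of 8.71 in parental, 7.25 in liver and 7.70 in lung arrays (changes -1.46, adjusted p = 4.46e-06, and -1.01, adjusted p = 9.36e-05). SLCO1B3, an importer of organic anions, stood at 5.95, 4.42 and 4.69 (changes -1.54, adjusted p = 0.000576, and -1.27, adjusted p = 0.00166). ATP1B1, a sodium pump subunit, was the one that rose in liver, by 0.30 (adjusted p = 0.0234), and the calcium pump ATP2B1 fell by 0.32 in lung (adjusted p = 0.0047).

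Markers of the cell line and of the kinds of cells found in host organs were read in the same fit. All were read as human genes, while the hosts were mice. The epithelial keratins KRT8 and KRT18 had parental means of 12.75 and 11.62 and were not called in any comparison, nor were GPA33, CDHR5 and MUC2. ELF3, the other of the 6 markers of colon cancer epithelium, changed by -0.51 in liver (adjusted p = 0.0015), -0.25 in lung (adjusted p = 0.0329) and 0.26 from liver to lung (adjusted p = 0.0466). Of 9 hepatocyte markers the smallest adjusted p in liver was 0.0583 (RBP4, a change of -0.50), and the changes ran from -0.50 to 0.25. In lung 12.8% of all genes were higher. Of 6 lung epithelial markers 3 rose in lung, SFTPA1 (0.39), SFTPA2 (0.45) and PDPN (0.35). SFTPD, SCGB1A1 and AQP5 changed by -0.05, -0.03 and 0.17 without a call. The median change of the list was 0.26, or 0.09 with the array set as a term. Of 8 leukocyte markers 4 rose in lung, LYZ by 1.64 and CD3D, MS4A1 and PTPRC by 0.45, 0.37 and 0.19, and FCER1G changed by -0.46. Of 5 endothelial and 6 stromal markers 1 and 2 rose in lung, and the stromal LUM changed by -1.97 in liver and -0.62 in lung. The part of these genes in the SLC results was not tested.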

How the data were processed

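RNA of 10 SW620 cultures (4 parental, 3 liver and 3 lung derivative arrays) was measured on Affymetrix HG1.0ST chips. The authors deposited log2 values from RMA, run with oligo in R according to the submitters' processing notes, in which neither a version nor a summary level is named. RMA places arrays on a common distribution, so a change of total RNA cannot be seen. The table has 65535 rows and may be incomplete, and 54806 of them list 1 gene symbol. Rows listing several genes were not used to name a gene. Symbols and promoters came from RefSeq tables of GRCh38.p14, which named 4703 of 4727 symbols.

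For each symbol the rows were averaged in each array. The gene means entered limma 3.58.1 under R 4.3.3 in a model of the 3 groups without covariates, on all 10 arrays. Two-sided moderated tests of the 3 contrasts received Benjamini-Hochberg adjustment over 4727 genes. All 56949 rows with a listed gene were fitted the same way for the single-row results. All adjusted p-values in the text come from limma. A simulation of 4727 genes drew independent normal noise for each array, with the spread of each gene pooled over the 3 groups. Changes were added to the liver arrays alone. In liver minus parental, 80% of changes of 0.5 log2 and 99% of 1 log2 were called, with 4.79% false among the calls. The simulation held no shared deviation of an array such as that of parental array 4, so these shares need not hold for the real arrays.

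Alternatives were the brightest or the median row of a gene, the array set as a term, the replicate number as a block, quantile normalization, median centring, a filter leaving out genes in the lowest 25% of mean level, limma with trend and robust variance, and each array left out. Members, lists and alternatives were chosen with earlier results of these data known. The genes described by array were those called, at most the 8 largest rises and falls of a comparison, at most 3 of each role group, and a fixed list of 20 transporters, 17 of them measured. How many arrays a group has limits the precision, as does signal over background where rows are dim.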

Additional observations from a re-analysis of the deposited data

Results flagged for a closer look

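The 41 members checked were those called in any comparison and the measured genes of the fixed list, so SLC35A3 and SLC25A22 were not among them. In the parental group of 4 arrays, 8 of the 41 had a single array far from the 3 others. The rule was a gap over the group's range above 0.829, which chance gives in about 1 in 20. The share over all genes was not counted. In 7 of the 8 members the array apart was parental array 4. It was low in SLC16A9 (7.78 against 8.28 to 8.36), SLC30A1 (8.37 against 8.81 to 8.86), SLC39A1 (9.21 against 9.53 to 9.56) and SLC3A2 (10.24 against 10.69 to 10.77). It was high in SLC38A1 (11.72 against 11.63 to 11.64), SLC4A8 (7.57 against 6.84 to 6.90) and SLC6A12 (7.55 against 7.30 to 7.32). In SLC30A7 parental array 3 was low, at 9.29 against 9.50 to 9.55.

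The liver and lung derivatives differed from each other (lung minus liver, limma, adjusted p under 0.05) in 14 members. Lower in lung were SLC30A1 (-0.58), SLC36A4 (-0.46), SLC35E3 (-0.44), SLC3A2 (-0.39), SLC25A44 (-0.38), SLC16A1 (-0.36) and SLC26A9 (-0.29). Higher in lung were SLC45A3 (0.25), SLC22A25 (0.28), SLC48A1 (0.28), SLC30A2 (0.31), SLC16A4 (0.36), SLC17A8 (0.38) and SLC5A12 (0.48).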

How the results depend on the processing

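In liver the 7 members became 1 by brightest rows, SLC26A10, which is not among the 7, and SLC22A15 turned to 0.22 there. With any array left out 5 to 8 members were called. Leaving out parental array 4 and all lung arrays, an alternative chosen after seeing the data, gave 8. In lung the 22 members became 13 by median rows, 5 with the array set as a term and 11 to 33 with any array left out (11 without lung array 1, 14 without parental array 1 or 2, 33 without parental array 4). SLC26A9 (0.06), SLC35E3 (0.07) and SLC39A5 (0.33) changed sign by brightest rows, and SLC30A1 (0.16) by median rows. Between lung and liver the 14 members became 21 by brightest rows (19 higher, 2 lower), 4 by median rows, 0 with the set as a term, and 0 to 26 with any array left out. They were 0 without liver array 2 or 3, where 20 and 21 members had an unadjusted p under 0.05, 1 without lung array 1, 4 without liver array 1, 5 and 9 without lung arrays 3 and 2, and 26 without parental array 4. Signs turned there in SLC16A4 (-0.02), SLC35E3 (0.04) and SLC3A2 (0.10) with the set as a term, in SLC26A9 (0.12), SLC30A2 (-0.15) and SLC35E3 (0.21) by brightest rows, and in SLC30A1 (0.02) by median rows. The causes were not tested, and the called shares of all genes with an array left out are not given here.

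Of the other membrane transport genes, 3 called in liver became 1 by brightest rows (2 to 4 with any array left out), 9 in lung became 2 with the set as a term (8 to 13 with any array left out), and 5 between lung and liver became 13 by brightest rows, 3 by median rows, 0 with the set as a term (5 at an unadjusted p under 0.05), 9 with the replicate block, 12 with trend and robust variance and 0 to 14 with any array left out.

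Replicate numbers did not pair the arrays: the deviations of 9 same-numbered pairs correlated at -0.20 to 0.13, 2 of them over 0.1. With the replicate block 7 members were called in liver, 29 in lung and 19 between them, and the called shares of all genes in that fit are not given here.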
